A study of Mus musculus with 12 samples.

Results

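BCL-2 survival genes and BAX are 10 genes of the mouse BCL-2 family, chosen by name because the apoptosis heat map of the study leaves them out. They are the survival genes Bcl2, Bcl2l1 (encoding BCL-XL), Bcl2l2 (BCL-W), Mcl1 and the A1 copies Bcl2a1a, Bcl2a1b and Bcl2a1d, the effector gene Bax, its activator Bid, and Bcl2l12, a distant relative. Of the 10, 9 were found among the 38924 gene identifiers with read counts and all 9 had enough reads to be tested. Bcl2a1a had no row under its symbol or its Ensembl identifier and is not analysed here.

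BCL-2 family proteins decide whether the outer mitochondrial membrane stays intact. BAX and its relative BAK form pores that let cytochrome c out, the survival proteins hold them and the BH3-only proteins in check, and BID cut by caspase-8 links death receptors to the same pore. In T cells BCL-2 and MCL-1 are known to keep resting cells alive, BCL-XL and A1 are known to be induced when the antigen receptor is engaged, and the BH3-only protein NOXA (Pmaip1) binds mainly MCL-1 and A1.

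The data were RNA sequencing counts of CD4+ T cells from the spleens of C57BL/6 mice, in 4 groups of 3 libraries each. WT cells and cells of STINGgt/gt mice (Goldenticket, labelled STING KO), whose Tmem173 gene carries a missense mutation that leaves no functional STING, were cultured for 16 h with the solvent DMSO or with CMA (10-carboxymethyl-9-acridanone), which binds and activates STING of the mouse. All 4 groups began as naïve cells taken by a sort, a gate meant to leave out B, natural killer, CD8 and myeloid cells, and had been driven to divide by anti-CD3 and anti-CD28 antibodies and then rested without them, so none of them was freshly isolated, and the mice were 8 to 12 weeks old. The study calls the libraries of a group biological replicates, but the labels do not say that they came from separate animals, and p-values measure the spread between these libraries.

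Each library held between 27414450 and 43784910 reads on genes. Levels are given in CPM, reads per 1000000 of the library size adjusted by edgeR's TMM method. Tmem173 lay at 183 to 190 CPM in WT and at 168 to 181 CPM in STINGgt/gt T cells with DMSO, so a missense allele could not be checked by its mRNA. Markers of T cells (Cd3d, Cd3e, Cd3g, Cd4, Cd28, Lck, Cd5) summed to 2866 to 2918 CPM in WT with DMSO, 2634 to 2641 CPM in WT with CMA and 2950 to 3054 CPM in STINGgt/gt, so the WT groups did not overlap. B cell markers (Ms4a1, Cd79a, Cd79b, Pax5, Cd22) summed to 186 to 194 CPM in WT with DMSO, 236 to 257 CPM in WT with CMA and 78.0 to 86.3 CPM in STINGgt/gt. Markers of natural killer and CD8 cells (Cd8a, Cd8b1, Ncr1, Klrb1c, Gzmb, Prf1, Nkg7) summed to 2084 to 2547 CPM and 1501 to 1594 CPM in WT with DMSO and with CMA, and to 905 to 950 CPM and 703 to 748 CPM in STINGgt/gt. Gzmb, which encodes granzyme B, made most of that sum. Myeloid markers (Lyz2, Csf1r, Itgam, Cd14, Adgre1, S100a8, S100a9, Cst3) summed to 44.5 to 48.4 CPM and 57.3 to 61.2 CPM in WT and to 33.2 to 37.7 CPM in STINGgt/gt. In WT with CMA, 1 of the 5 myeloid markers tested was higher, Cst3 (38.6 ± 2.35 to 55.7 ± 2.43 CPM, SD, n = 3), and 2 were lower, Lyz2 (log2 -1.50) and Itgam (log2 -1.71). The myeloid markers S100a8 and S100a9 were near the floor in all groups and were not tested. They were at 0 in every STINGgt/gt library and had at most 2 and 8 reads in any WT library. The part of other cells in the differences given here was not tested.

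The A1 copies were the members that reads could confuse. The spliced transcripts of Bcl2a1b and Bcl2a1d (GENCODE M21) differed at 7 of 817 aligned bases, an identity of 99.14%, and of all 50-base windows of Bcl2a1d 79.48% also occurred in another copy, against 57.55% for Bcl2a1b. Reads that aligned to several places were not counted, so both copies are undercounted. The stretches just upstream of the 3 copies are shown because the copies are alike there too. They are RefSeq sequences of GRCm38.p6, on the plus strand at chr9:88956714-88956858 for Bcl2a1a, on the plus strand at chr9:89199023-89199167 for Bcl2a1b and on the minus strand at chr9:88731912-88732050 for Bcl2a1d, 5′ to 3′, with the bases that differ from at least 1 other copy in capitals.
Bcl2a1a: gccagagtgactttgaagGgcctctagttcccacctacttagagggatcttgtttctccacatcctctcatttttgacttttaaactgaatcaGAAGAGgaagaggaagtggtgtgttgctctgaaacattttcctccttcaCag
Bcl2a1b: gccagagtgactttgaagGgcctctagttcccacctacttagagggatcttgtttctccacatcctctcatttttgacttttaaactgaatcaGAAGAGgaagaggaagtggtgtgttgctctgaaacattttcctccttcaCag
Bcl2a1d: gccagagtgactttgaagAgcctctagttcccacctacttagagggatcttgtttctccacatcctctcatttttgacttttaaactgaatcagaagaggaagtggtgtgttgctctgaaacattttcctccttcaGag
Over these 145 bases Bcl2a1a and Bcl2a1b had 0 differences, and Bcl2a1d differed from them at 2 bases and lacked 6.

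The promoter windows of the members, 250 bases before to 50 bases after each RefSeq start, were searched on both strands for 3 motifs. The table held 12 such windows for the 10 members (3 of them for Bcl2l1), and 32851 windows of this length in all. The NF-κB consensus site was found in 1 of the 12, a Bcl2l1 window, against 8.459% of all windows. The p53 decamer consensus, a pair of which makes a full p53 site, was found in 1 of the 12, that of Bax, against 8.356% of all windows. The core of an interferon response element, GAAA followed after any 2 bases by GAAA, was found in 0 of the 12 and in 3.443% of all. The 2 matches lay in different windows and so did not overlap. They are shown with their flanks, the match in capitals, because no other member window held any of the 3 motifs. The Bcl2l1 stretch is on the minus strand at chr2:152830938-152830967, with the match from 242 to 233 bases before that start, and the Bax stretch on the minus strand at chr7:45467080-45467109, with the match from 201 to 192 bases before its start.
Bcl2l1: tgtttgtgGGGGGTCTCCagcatacgcctc
Bax: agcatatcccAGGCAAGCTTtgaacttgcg
A match is a string of letters in a window and says nothing of binding.

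The first comparison asked how these genes responded to CMA where STING was functional. In WT T cells the survival genes other than Bcl2 rose, by 1.12-fold for Mcl1 to 1.90-fold for Bcl2l1, whereas Bax and Bid fell. The study reports apoptosis of WT but not of STINGgt/gt T cells after CMA overnight. The part of dying cells in these changes was not tested. CPM are relative to the other genes counted and do not give RNA per cell. Of the 9 members tested, 5 were higher and 2 were lower with CMA (adjusted p under 0.05 in edgeR's quasi-likelihood test, as throughout), and Bcl2 and Bcl2l12 were not called. Of all 13811 genes tested, 70.4% were called in this comparison, 33.0% higher and 37.4% lower, a share to be set beside the 7 of 9 members. The groups did not overlap for the same 7 members, against 71.1% of all genes. The median log2 fold change of the 9 members was 0.16, and that of all genes tested -0.04.

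**Figure D1:**
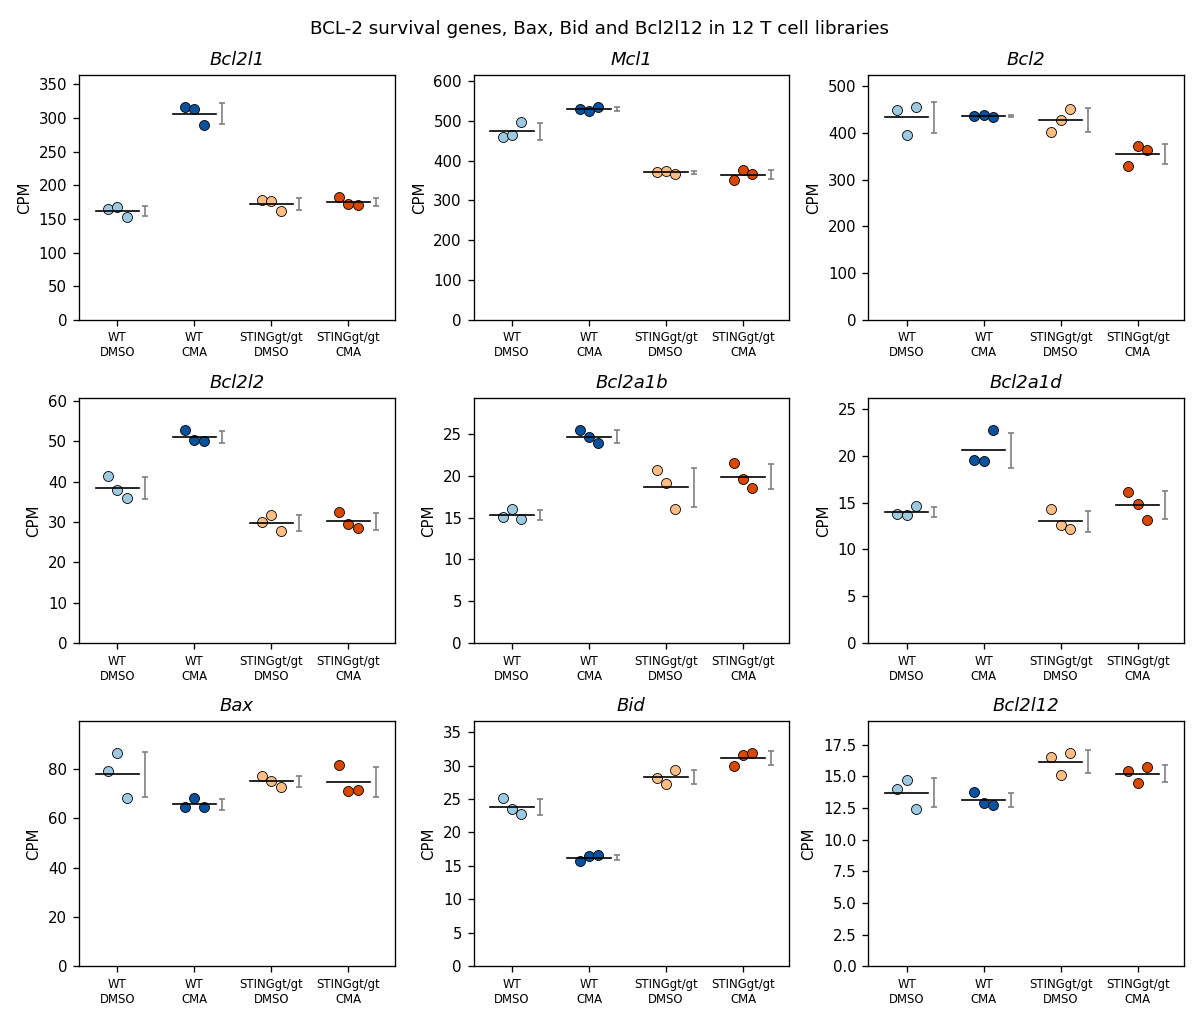
Level of 9 BCL-2 family members in CPM (y axis, linear from 0) in the 12 libraries. Points are libraries, black lines the means of 3 and grey bars the SD. Bcl2l1 lies between 289 and 317 CPM in WT with CMA and between 153 and 182 CPM in all other libraries, while Bid is lowest in WT with CMA.

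Bcl2l1 (ENSMUSG00000007659, GRCm38 chromosome 2, 152780668 to 152831728, minus strand) encodes BCL-XL, the survival protein that holds BAX and BAK in many tissues. Its levels in WT were 165, 167 and 153 CPM with DMSO and 317, 314 and 289 CPM with CMA. In STINGgt/gt they were 177, 177 and 163 CPM with DMSO and 182, 173 and 171 CPM with CMA. Only the 3 WT libraries with CMA stood apart from all the others. The STINGgt/gt groups overlapped, as did the groups with DMSO, while WT with DMSO lay just below STINGgt/gt with CMA. The log2 fold change was 0.92 ± 0.05 (SE, adjusted p = 1.09e-10, edgeR) in WT and 0.02 ± 0.05 (adjusted p = 0.887, edgeR) in STINGgt/gt. The difference of these effects was 0.90 ± 0.07 (adjusted p = 2.49e-08, edgeR), the largest among the members. In bulk RNA, a gain in cells of a type cannot be told apart from more RNA per cell, nor fewer cells of a type from less RNA per cell, and this holds for every level given here.

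The A1 copies encode a short-lived survival protein of blood cells. Bcl2a1b (ENSMUSG00000089929, chromosome 9, 89199209 to 89207827, plus strand) was at 15.0, 16.0 and 14.9 CPM with DMSO and 25.5, 24.6 and 23.9 CPM with CMA in WT. In STINGgt/gt it was at 20.7, 19.1 and 16.1 CPM with DMSO and 21.6, 19.6 and 18.6 CPM with CMA. Every WT library with CMA was above the other 9, and the STINGgt/gt groups overlapped. Bcl2a1b rose 1.61-fold in WT (log2 0.69 ± 0.08, adjusted p = 1.17e-06, edgeR), against a log2 value of 0.09 ± 0.08 (adjusted p = 0.682, edgeR) in STINGgt/gt.

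Bcl2a1d, counted under ENSMUSG00000096581 (chromosome 9, 88723288 to 88731850, minus strand), was at 13.7, 13.7 and 14.6 CPM with DMSO and 19.6, 19.5 and 22.8 CPM with CMA in WT. Its levels in STINGgt/gt were 14.3, 12.6 and 12.2 CPM with DMSO and 16.2, 14.8 and 13.1 CPM with CMA. The WT groups were again separate and the STINGgt/gt groups overlapped. The WT change was 1.47-fold (log2 0.55 ± 0.09, adjusted p = 2.46e-05, edgeR). Since reads may pass from one copy to the other, the counts of both were also added. The sum went from 29.3 ± 0.464 CPM to 45.3 ± 1.29 CPM (SD, n = 3) in WT, a log2 change of 0.63 ± 0.07 (SE, adjusted p = 7.75e-07, edgeR), and from 31.6 ± 3.35 CPM to 34.6 ± 3.00 CPM in STINGgt/gt, a log2 value of 0.13 ± 0.07 (adjusted p = 0.476, edgeR). Mthfs, whose span in the deposited gene positions overlaps that of Bcl2a1b on the same strand, also rose 1.59-fold in WT. Gm29094, a gene of the same strand that shares 401 exon bases (49.08%) with Bcl2a1b in GENCODE M21, had no row among the identifiers used and is not analysed here, and what reads these genes share with Bcl2a1b was not tested. The summed B cell markers were higher with CMA in WT as well (236 to 257 CPM against 186 to 194 CPM), and their part in the rise of the A1 copies was not tested. Reads that were not unique made 29.6% to 30.3% of entries in WT with DMSO and 27.8% to 27.9% with CMA, and reads on no feature 4.86% to 5.47% and 6.79% to 7.16%, so both moved with CMA in WT without overlap. Their part in the WT changes was not tested.

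Bcl2l2 (ENSMUSG00000089682, chromosome 14, 54883377 to 54888234, plus strand) encodes BCL-W. Its levels in WT were 41.4, 38.0 and 35.9 CPM with DMSO and 52.8, 50.3 and 49.95 CPM with CMA. In STINGgt/gt they ran from 27.7 to 31.6 CPM with DMSO and from 28.6 to 32.6 CPM with CMA. The WT groups were separate, and all 6 STINGgt/gt libraries were below all WT libraries. The rise was 1.33-fold in WT (log2 0.41 ± 0.06, adjusted p = 2.47e-05, edgeR), and the log2 value in STINGgt/gt was 0.02 ± 0.07 (adjusted p = 0.949, edgeR). A read-through gene annotated on the same strand, Gm20521, shares 594 exon bases with Bcl2l2 and had 0 counts in all libraries. Its 0 counts do not show how reads on the shared bases were counted, and the part of shared reads was not tested.

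Mcl1 (ENSMUSG00000038612, chromosome 3, 95658721 to 95663176, plus strand), whose protein turns over quickly and is held by NOXA, changed least among the members called. Its levels in WT were 459, 464 and 498 CPM with DMSO and 530, 524 and 536 CPM with CMA. In STINGgt/gt they were 373, 374 and 366 CPM with DMSO and 353, 376 and 367 CPM with CMA. The WT groups did not overlap, although the gap between them was smaller than the spread within the DMSO group. The WT change was 1.12-fold (log2 0.16 ± 0.04, adjusted p = 0.00243, edgeR), and the log2 value in STINGgt/gt was -0.02 ± 0.04 (adjusted p = 0.865, edgeR).

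Bcl2 (ENSMUSG00000057329, chromosome 1, 106538178 to 106714274, minus strand), the founding survival gene of the family, was at 449, 395 and 456 CPM with DMSO and at 436, 438 and 435 CPM with CMA in WT. In STINGgt/gt it was at 403, 429 and 452 CPM with DMSO and at 330, 372 and 364 CPM with CMA. The WT groups overlapped, whereas the STINGgt/gt groups were separate. The log2 value was 0.01 ± 0.06 (adjusted p = 0.886, edgeR) in WT, and Bcl2 fell 1.20-fold in STINGgt/gt (log2 -0.27 ± 0.06, adjusted p = 0.0350, edgeR). Bcl2 was the only member of 9 called in STINGgt/gt, where 1.32% of all genes were called, 0.398% higher and 0.920% lower. That share was 3.25% and 3.27% without replicate 2 or 3 of WT with DMSO, and 0.399% to 0.734% without any single STINGgt/gt library. The call of Bcl2 was lost in 10 of 24 alternative fits, in which its log2 value stayed between -0.31 and -0.22, including those without any single CMA library of either genotype or any single STINGgt/gt library with DMSO, with an adjusted p of up to 0.170 (edgeR). The other 8 members had log2 values from -0.09 to 0.18 in STINGgt/gt. For 2 members, Bcl2 and Bid, the STINGgt/gt groups did not overlap, against 23.1% of all genes. Gzmb fell in STINGgt/gt as well, from 858 ± 21.5 to 649 ± 23.7 CPM (SD, n = 3; adjusted p = 0.00317, edgeR), and its part in the change of Bcl2 was not tested. The antisense gene D630008O14Rik shares 558 exon bases (6.09%) with Bcl2 on the opposite strand, and the part of shared reads was not tested.

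Bax (ENSMUSG00000003873, chromosome 7, 45461695 to 45466898, minus strand), the pore-forming effector, was at 79.1, 86.4 and 68.32 CPM with DMSO and at 64.4, 68.28 and 64.5 CPM with CMA in WT. In STINGgt/gt it was at 77.1, 75.0 and 72.6 CPM with DMSO and at 81.7, 70.9 and 71.4 CPM with CMA. The WT groups all but touched, and the STINGgt/gt groups overlapped. Bax fell 1.18-fold in WT (log2 -0.24 ± 0.07, adjusted p = 0.00724, edgeR), and the log2 value in STINGgt/gt was -0.01 ± 0.07 (adjusted p = 0.984, edgeR). Gm45808, a protein-coding gene of the same strand, shares 192 exon bases (12.18%) with Bax in GENCODE M21. The part of reads shared with it was not tested. The difference of the effects in Bax, -0.24 ± 0.10, did not pass the threshold (adjusted p = 0.0579, edgeR), and whether it passed depended on the fit. It passed in 6 of 23 alternatives, namely with each replicate block (adjusted p = 0.0135 by title number within genotype, 0.0397 by title number across genotypes and 0.0178 by library name, edgeR), with library-size scaling (0.0451), with no filter (0.0170) and without replicate 3 of WT with DMSO (log2 -0.31, adjusted p = 0.00229).

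Bid (ENSMUSG00000004446, chromosome 6, 120891930 to 120916853, minus strand), whose cut form activates BAX and BAK, was at 25.2, 23.4 and 22.8 CPM with DMSO and at 15.8, 16.4 and 16.6 CPM with CMA in WT. In STINGgt/gt it was at 28.1, 27.3 and 29.3 CPM with DMSO and at 30.0, 31.6 and 31.9 CPM with CMA. All 4 groups were separate from each other, with WT and CMA the lowest. Bid fell 1.46-fold in WT (log2 -0.55 ± 0.06, adjusted p = 2.50e-07, edgeR), and the log2 value in STINGgt/gt was 0.14 ± 0.05 (adjusted p = 0.238, edgeR). The 3′ neighbour Bcl2l13, a gene on the opposite strand that shares 628 exon bases with Bid, was not called in either genotype.

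Bcl2l12 (ENSMUSG00000003190, chromosome 7, 44991222 to 44998712, minus strand) ranged from 12.4 to 14.7 CPM with DMSO and from 12.7 to 13.8 CPM with CMA in WT. In STINGgt/gt it ranged from 15.1 to 16.8 CPM with DMSO and from 14.5 to 15.8 CPM with CMA. The groups with and without CMA overlapped in both genotypes, with log2 values of -0.05 ± 0.07 (adjusted p = 0.547, edgeR) and -0.09 ± 0.07 (adjusted p = 0.656, edgeR). Bcl2l12 overlaps Irf3 on the opposite strand by 88 exon bases and the antisense transcript Gm15545 by 572. The library kit keeps the strand, but the strand setting of the counting is not given in the sources used here.

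**Figure D2:**
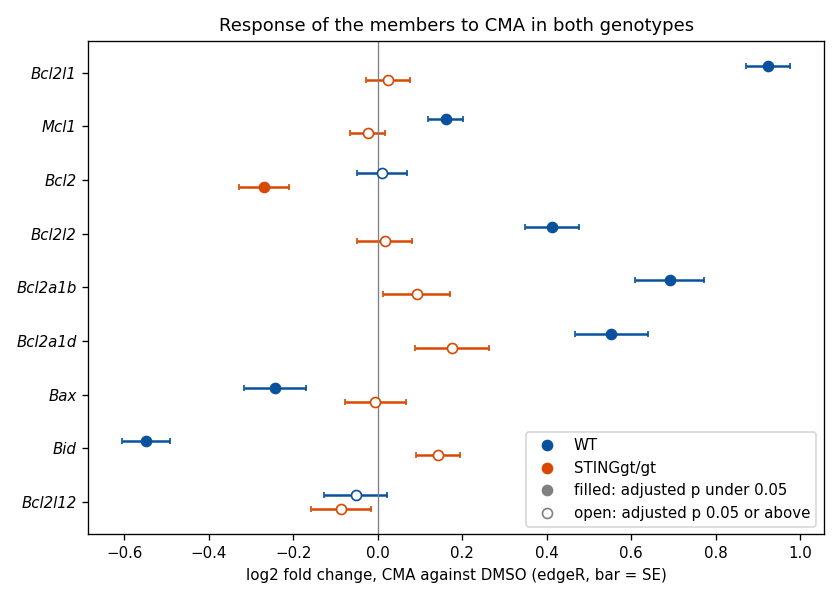
Log2 fold change with CMA against DMSO (x axis, edgeR) of the 9 members in WT (blue) and STINGgt/gt (orange) T cells, bars giving the SE. Filled points passed an adjusted p of 0.05: 7 in WT, from -0.55 for Bid to 0.92 for Bcl2l1, and Bcl2 alone in STINGgt/gt.

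The CMA effect itself differed between the genotypes for 7 members, against 58.8% of all genes, 27.2% more positive in WT and 31.6% more negative. It was more positive in WT for Bcl2l1, Bcl2a1b (0.60 ± 0.11, adjusted p = 2.80e-04, edgeR), Bcl2l2 (0.40 ± 0.09, adjusted p = 0.00151), Bcl2a1d (0.38 ± 0.12, adjusted p = 0.0144), Bcl2 (0.28 ± 0.08, adjusted p = 0.00927) and Mcl1 (0.18 ± 0.06, adjusted p = 0.0130). It was more negative in WT for Bid (-0.69 ± 0.08, adjusted p = 1.13e-06, edgeR). For Bcl2 the effects behind this difference were 0.01 in WT and -0.27 in STINGgt/gt, so WT did not rise. These effects use all 4 groups and share their libraries with the comparisons in each genotype.

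Levels of different genes can be set side by side only per length, here as CPM per kb of annotated exon. The A1 copies are undercounted, as given above, so their places in the order, and the sums and shares of survival genes that include them, hold only for the reads counted. On this scale Mcl1 was the most abundant member in every group, at 139 ± 6.14 CPM per kb (SD, n = 3) in WT with DMSO, 155 ± 1.65 in WT with CMA, 109 ± 1.19 in STINGgt/gt with DMSO and 107 ± 3.41 in STINGgt/gt with CMA. In WT with DMSO the order after it was Bax (49.4 ± 5.77), Bcl2 (47.3 ± 3.65), Bcl2l1 (35.2 ± 1.62), Bcl2a1b (18.7 ± 0.722), Bcl2a1d (16.2 ± 0.584), Bcl2l2 (8.62 ± 0.621), Bcl2l12 (6.93 ± 0.584) and Bid (6.70 ± 0.344). Bax overlapped Bcl2 and Bcl2l12 overlapped Bid there, and the other neighbours were separate. With CMA in WT, Bcl2l1 came second at 66.9 ± 3.28 CPM per kb, ahead of Bcl2 (47.7 ± 0.146) and Bax (41.7 ± 1.40), and no neighbours overlapped. In both STINGgt/gt groups the order after Mcl1 was Bax, Bcl2 and Bcl2l1, although Bax and Bcl2 overlapped with DMSO and Bcl2 and Bcl2l1 with CMA. Bcl2l2 came last in both STINGgt/gt groups (6.68 ± 0.448 and 6.76 ± 0.474 CPM per kb) and seventh in both WT groups.

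The 6 survival genes with counts together made 265 ± 6.54 CPM per kb in WT with DMSO and 335 ± 2.12 with CMA, ranging from 259 to 272 and from 334 to 338. In STINGgt/gt the sum was 237 ± 4.70 with DMSO and 232 ± 3.66 with CMA, ranges that overlapped. Within that sum the share of Bcl2l1 in WT went from 13.3% ± 0.929 to 19.9% ± 0.926, while the share of Mcl1 went from 52.3% ± 1.22 to 46.3% ± 0.534 and that of Bcl2 from 17.9% ± 1.08 to 14.2% ± 0.112. In STINGgt/gt the share of Bcl2l1 was 15.8% ± 0.478 with DMSO and 16.5% ± 0.621 with CMA, and that of Mcl1 was 45.7% ± 0.425 and 46.0% ± 1.27. The share of Bcl2 was lower with CMA there as well, ranging from 18.3% to 21.3% with DMSO and from 15.6% to 17.4% with CMA. The share of Mcl1 in WT with DMSO was therefore above that in the other 3 groups, while that of Bcl2l1 was highest in WT with CMA. No test was made on these shares, which are given as a description.

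**Figure D3:**
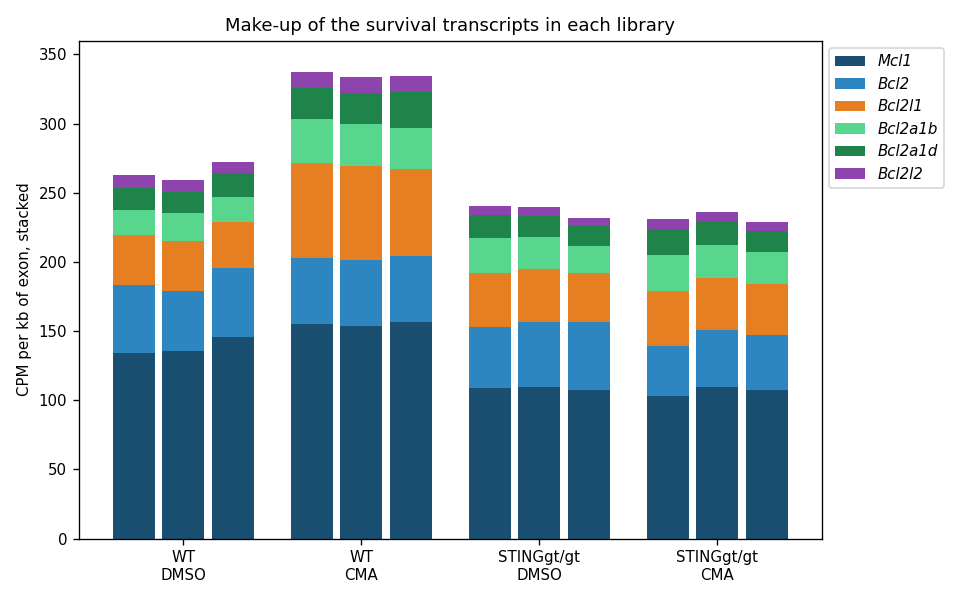
Stacked level of the 6 survival genes in each library, in CPM per kb of exon (y axis, linear from 0), 3 bars for each group. The sum lies between 334 and 338 in WT with CMA and between 229 and 272 in the other groups, and the orange Bcl2l1 segment is the one that grows most in WT with CMA.

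The balance between survival genes and the genes whose products they hold was described by ratios of CPM per kb. The ratio of Bcl2l1 to Bax was 0.716, 0.664 and 0.770 in WT with DMSO and 1.69, 1.58 and 1.54 with CMA. Cells without functional STING had ratios of 0.791, 0.812 and 0.769 with DMSO and 0.766, 0.839 and 0.822 with CMA. Only WT with CMA had more Bcl2l1 than Bax per length. The ratio of Bcl2 to Bcl2l1 moved the other way in WT, from 1.35 ± 0.155 to 0.714 ± 0.0345 (SD, n = 3), against 1.25 ± 0.132 and 1.02 ± 0.0952 in STINGgt/gt. Mcl1 to Bax was 2.84 ± 0.462 and 3.72 ± 0.157 in WT, whereas it was 2.28 ± 0.0497 and 2.27 ± 0.244 in STINGgt/gt.

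Survival genes were also set against BH3-only genes that rose. Pmaip1, encoding NOXA, rose 12.3-fold in WT, and the ratio of Mcl1 to Pmaip1 per kb went from 16.9, 16.7 and 17.3 with DMSO to 1.49, 1.54 and 1.60 with CMA. In STINGgt/gt the same ratio was 17.2 ± 1.03 (SD, n = 3) with DMSO and 15.7 ± 0.391 with CMA. The ratio of Bcl2l1 to Bbc3, encoding PUMA, went from 4.79 ± 0.491 to 2.67 ± 0.208 in WT and was 3.62 ± 0.0776 and 3.54 ± 0.200 in STINGgt/gt. That of Bcl2l1 to Bcl2l11, encoding BIM, went from 3.70 ± 0.382 to 2.20 ± 0.0799 in WT, against 4.34 ± 0.358 and 3.78 ± 0.222 in STINGgt/gt. Bbc3 and Bcl2l11 rose most among the BH3-only genes after Pmaip1, so these ratios do not stand for the whole group: Bad (log2 0.50) and Bmf (0.28) rose less than Bcl2l1 (0.92) in WT, and Bid (-0.55) and Bik (-1.56) fell.

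**Figure D4:**
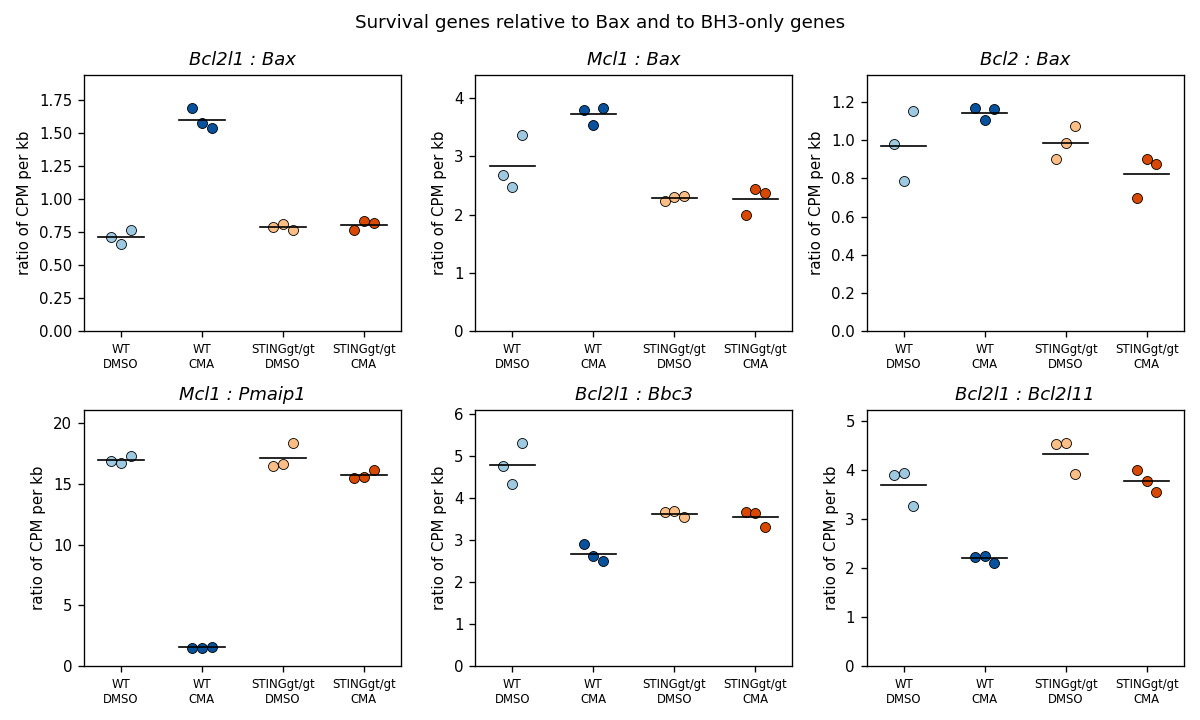
Ratios of CPM per kb (y axes, linear from 0) of survival genes to Bax (upper row) and to survival genes' BH3-only partners (lower row) in the 12 libraries. Points are libraries and lines the means of 3. Bcl2l1 to Bax lies between 1.54 and 1.69 in WT with CMA and below 0.85 elsewhere, and Mcl1 to Pmaip1 falls to between 1.49 and 1.60 there.

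The rest of the pathway was read from 3 lists of genes. Of 7 BH3-only genes, which sense damage and release BAX and BAK, 6 were tested, and in WT 5 were higher and 1 was lower with CMA, with a median log2 value of 1.08, beside 33.0% higher and 37.4% lower among all genes tested. Bid, which carries a BH3 domain and fell, is counted with the members and not in this list. The highest were Pmaip1 (log2 3.62 ± 0.05), Bbc3 (1.77 ± 0.08) and Bcl2l11 (1.67 ± 0.05). Bik, which went from 2.06 ± 0.493 to 0.678 ± 0.196 CPM (SD, n = 3), was the one that fell (log2 -1.56 ± 0.22, SE). In STINGgt/gt, where 1.32% of all genes were called, 1 of the 6 was, Bcl2l11 (log2 0.22 ± 0.05, adjusted p = 0.0350, edgeR).

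Of 9 further relatives of BCL-2, 6 were tested, and in WT Bcl2l14 (log2 1.39 ± 0.06) and Bak1 (0.21 ± 0.05), the gene of the other pore former BAK, were higher and Bnip3 (-0.58 ± 0.05), a mitophagy receptor, was lower, so 3 of the 6 were called against 70.4% of all genes. Bak1 and Bax, which encode pore formers of like function, were thus called in opposite directions in WT, both with a small change. The difference of the CMA effect between genotypes was not called for Bak1 (log2 0.12 ± 0.08, adjusted p = 0.183, edgeR). For Bax it was not called in the main fit either (adjusted p = 0.0579, edgeR). In STINGgt/gt 1 of the 6 was called, Bnip3 (log2 -0.23).

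Of 11 genes that act after or around the mitochondrial proteins, 7 were higher and 2 were lower in WT with CMA, against 33.0% and 37.4% of all genes, with a median log2 value of 0.17. Apaf1 (1.20 ± 0.07), the scaffold of the apoptosome, and Htra2 (1.01 ± 0.06) led those that were higher. The 2 lower ones, named after their values were seen, were Cycs (-0.84 ± 0.06), which encodes cytochrome c, and Vdac2 (-0.56 ± 0.04), a channel of the outer membrane that binds BAK. In STINGgt/gt 0 of the 11 were called by edgeR, DESeq2 or limma-voom, and 1 (edgeR and DESeq2) or 2 (limma-voom) had an unadjusted p under 0.05.

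**Figure D5:**
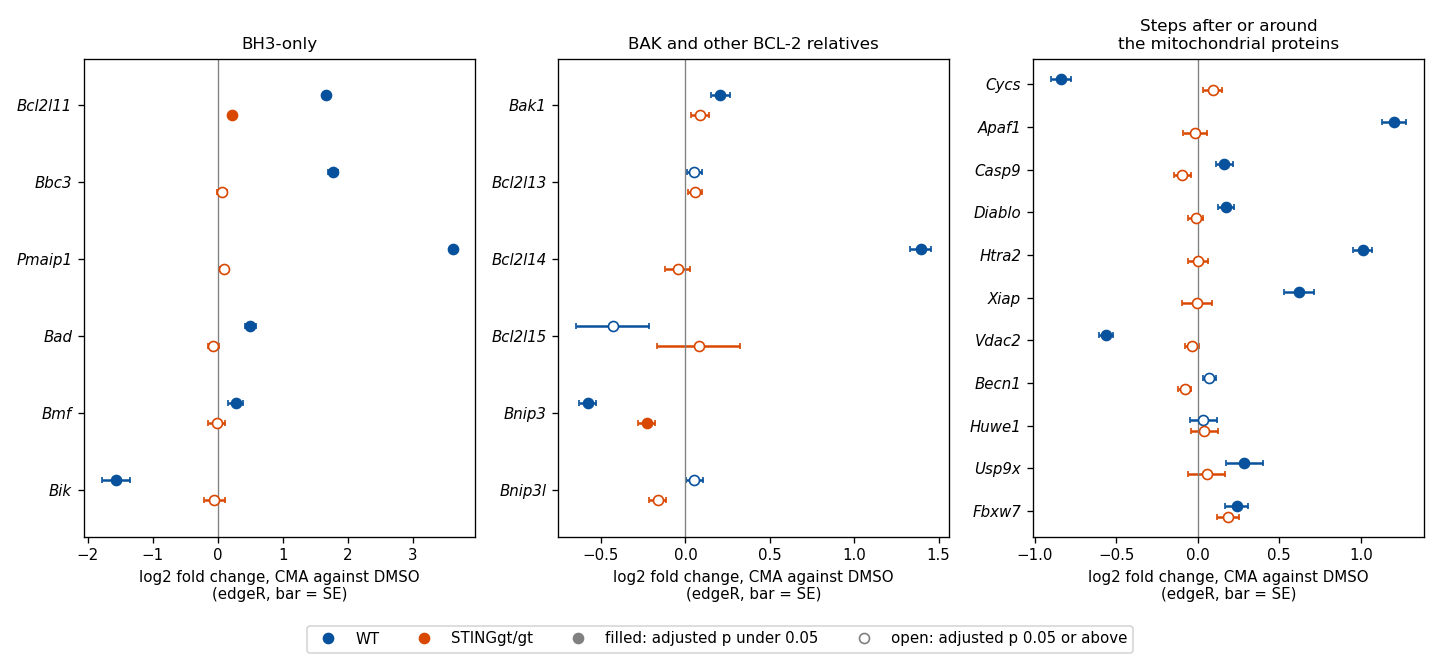
Log2 fold change with CMA against DMSO (x axes, edgeR, bars giving the SE) of the tested genes of 3 lists in WT (blue) and STINGgt/gt (orange), filled where the adjusted p was under 0.05. In WT the values run from -1.56 (Bik) to 3.62 (Pmaip1), and in STINGgt/gt only Bcl2l11 and Bnip3 are filled.

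The genotypes differed before STING was activated. With DMSO, 2 members were higher in WT than in STINGgt/gt and 3 were lower, against 42.7% of all genes called, 22.9% higher and 19.8% lower. Bcl2l2 was 1.29-fold higher (log2 0.36 ± 0.07, adjusted p = 3.17e-04, edgeR) and Mcl1 1.28-fold higher (log2 0.35 ± 0.04, adjusted p = 4.18e-06, edgeR). Bcl2a1b (log2 -0.29 ± 0.08, adjusted p = 0.0103, edgeR), Bid (-0.25 ± 0.05, adjusted p = 0.00143) and Bcl2l12 (-0.24 ± 0.07, adjusted p = 0.0126) were lower. The groups did not overlap for these 5, against 47.9% of all genes, though for Bcl2a1b the highest WT library (15.97 CPM) was next to the lowest STINGgt/gt library (16.06 CPM). The sum of the A1 copies was not called (log2 -0.11 ± 0.07, adjusted p = 0.233, edgeR), and the call of Bcl2a1b was lost without replicate 1 of STINGgt/gt with DMSO (log2 -0.21, adjusted p = 0.0645). The call of Bcl2l12 was lost without replicate 3 of WT with DMSO (log2 -0.18, adjusted p = 0.0538, edgeR). The genes that overlap Bcl2l12 on the opposite strand were lower in WT in the same comparison, with log2 differences of -0.37 for Gm15545 and -0.19 for Irf3 (edgeR, adjusted p = 0.00988 and 0.0271), and the part of shared reads was not tested. Bcl2, Bcl2l1, Bcl2a1d and Bax had log2 values from -0.09 to 0.11 and were not called. The summed markers of B cells, of natural killer and CD8 cells and of myeloid cells (44.5 to 48.4 CPM against 34.7 to 36.9 CPM) were also higher in WT with DMSO, and all 5 myeloid markers tested were called higher, with a median log2 value of 2.25. That median is the value of Csf1r, which had only 9 to 18 reads in WT and 0 to 6 in STINGgt/gt. Cst3 made most of the myeloid sums (means of 38.6 and 33.5 CPM) and had a log2 value of 0.20. The part of other cells in these differences was not tested.

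With CMA, 6 members were higher in WT and 3 were lower, against 73.5% of all genes called, 37.0% higher and 36.5% lower. The groups did not overlap for all 9, against 78.9% of all genes. Bcl2l1 was 1.75-fold higher (log2 0.81 ± 0.05, adjusted p = 4.18e-10, edgeR), Bcl2l2 1.69-fold (0.76 ± 0.06), Mcl1 1.45-fold (0.54 ± 0.04), Bcl2a1d 1.40-fold (0.48 ± 0.08), Bcl2a1b 1.24-fold (0.31 ± 0.08) and Bcl2 1.23-fold (0.30 ± 0.06). Bid was 1.92-fold lower (log2 -0.94 ± 0.06, adjusted p = 1.38e-10, edgeR), the largest difference of any member between the genotypes. Bcl2l12 (-0.21 ± 0.07, adjusted p = 0.0158, edgeR) and Bax (-0.18 ± 0.07, adjusted p = 0.0318) were lower by small amounts. Gm15545 (log2 -0.45, adjusted p = 0.00127, edgeR) and Irf3 (-0.40, adjusted p = 4.33e-05), which overlap Bcl2l12 on the opposite strand, were lower here too, and the part of shared reads was not tested. The call of Bcl2l12 was lost without CMA replicate 3 of WT (log2 -0.19) or of STINGgt/gt (-0.18). The call of Bax was lost in 5 of 22 alternative fits. These were limma on the deposited log2 values (log2 -0.14, adjusted p = 0.0963), the stricter filter of 10 counts in each library (-0.17, adjusted p = 0.0505, edgeR), and the fits without CMA replicate 1 (-0.17) or 3 (-0.17) of WT or CMA replicate 1 of STINGgt/gt (-0.11, adjusted p = 0.208, edgeR).

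The genes whose log2 CPM over the 12 libraries was most like that of 5 members were picked among 11183 genes with a mean count of at least 50. For Bcl2l1 they were Emd (Pearson's r = 0.997), Slc45a4 (0.993) and Rnf40 (0.993), and for Mcl1 they were Rab27a (0.996), Man1a (0.995) and Ero1lb (0.994). Those of Bcl2a1b were Ap4m1 (0.961), Pex19 (0.960) and Hspa8 (0.950). For Bax they were Rps15 (0.965) and Rps16 (0.959), which encode proteins of the small ribosomal subunit, and Zfp511 (0.949). Bcl2 had the least close neighbours, Coro2a (0.890), Gzf1 (0.881) and Csnk1a1 (0.878). The 12 points share 4 groups, so these values describe likeness of pattern over the groups.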

How the data were processed

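The authors deposited, for each of 12 libraries, raw counts of reads per Ensembl gene. They also deposited log2 values of 11921 genes, each of which equals the log2 of the count plus 0.5 and 1 factor per library. The submitters' processing notes name cutadapt 1.3, STAR 2.4.0f1, HTSeq 0.6.1, RSEM 1.2.16 and GRCm38. The annotation release and the strand setting are not given in the sources used here. Between 27414450 and 43784910 reads per library lay on genes. Reads tallied under no gene (not unique, 27.8% to 30.3% of all entries, no feature, 4.86% to 7.16%, both of which differed between the WT groups, and ambiguous, 0.594% to 0.635%) were left out of library sizes and tests. All replicate pairs differed by more than sampling noise (chi-square per degree of freedom 2.52 to 27.7, highest between replicates 2 and 3 of WT with DMSO).

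The counts were fitted with edgeR 4.0.16 (R 4.3.3, glmQLFit and glmQLFTest) after filterByExpr by group (13811 genes) and TMM scaling, with the 4 groups in 1 model and no block. An adjusted p (Benjamini-Hochberg over all genes tested) of 0.05 was the threshold. The fit was checked on simulated data. Lengths for CPM per kb and overlaps came from GENCODE M21, promoter windows from RefSeq (GRCm38.p6). Positions of genes are those of the deposited table. The members, the 3 pathway lists, the marker lists and the ratios were chosen with earlier results of these data known. From each pathway list at most 4 genes with the largest change among those called in WT were named, and for 5 members the 3 most correlated genes (log2 CPM, prior count 2). Bad, Bmf, Cycs and Vdac2 were named outside this rule, after their values were seen. Some genes of the pathway and marker lists are not reported here and were left out of the lists' counts and sums, and no other gene was named in their place.

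Alternatives were library-size and DESeq2-type scaling, DESeq2 1.42.0, limma-voom, limma 3.58.1 on the log2 table, a fit of all genes without the filter, a stricter filter (10 counts or more in each library), a fit of the compared groups alone, 2 replicate blocks and another chosen after seeing the data, the A1 copies summed and leaving out each of the 12 libraries.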

Additional observations from a re-analysis of the deposited data

Results flagged for a closer look

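CMA acted differently on the 2 genotypes by a test of the difference itself (edgeR's quasi-likelihood test, adjusted p under 0.05) for 7 of the 9 members, a share to be read against 58.8% of all genes tested. On the log2 scale the difference was 0.90 for Bcl2l1, 0.60 for Bcl2a1b, 0.40 for Bcl2l2, 0.38 for Bcl2a1d, 0.28 for Bcl2 and 0.18 for Mcl1, all more positive in WT, and -0.69 for Bid, more negative in WT. All 7 kept their direction and their call in each alternative fit that gave a value. The gap-to-range test for a single outlying value was not run on these groups of 3 samples each.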

How the results depend on the processing

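The precision is set by 3 libraries per group, and reads shared by the A1 copies limit their separation. In WT, 7 members were called under each of the 24 alternatives except with the A1 copies summed, where 6 of 8 were. In STINGgt/gt the 1 called member, Bcl2, was lost when library names formed the replicate block, giving 0 (log2 -0.30, adjusted p = 0.0576, edgeR, with 1 member at an unadjusted p under 0.05), and the count ran from 0 to 1 over the fits without 1 library each. Same-numbered DMSO and CMA libraries correlated at 0.00195 to 0.132 in their deviations from the group means over the 6 pairs. The rule used here asked for 0.1, which not all pairs reached, so the main fit has no block. This rule cannot exclude pairing. Of the 12 libraries, 10 correlated best with their own number, and in WT the library names paired DMSO and CMA libraries as the title numbers do. The replicate block by the number in the titles gave 7 called members in WT, 1 in STINGgt/gt and 8 for the difference of the effects, and that by library name 7, 0 and 8, Bax being the additional one. The share of all genes called in STINGgt/gt and for the difference was 2.63% and 61.1% with the first block and 0.311% and 55.1% with the second. In the block by library name, 1 DMSO and 1 CMA library of STINGgt/gt had no partner. Each formed a block of its own and added nothing to the CMA effect there. The lost call of Bcl2 and the lower share thus rest on fewer libraries as well as on the block. Neither block can be fitted to comparisons between genotypes, since both lie within a genotype. A block by title number across the genotypes, chosen after seeing the data, gave 7 called members in WT (70.0% of all genes), 1 in STINGgt/gt (1.25%), 8 for the difference of the effects (58.1%), 5 between genotypes with DMSO (41.9%) and 9 with CMA (73.2%). In STINGgt/gt 1.32% of all genes were called, against 2.34% by DESeq2 and 268 higher and 388 lower of 13113 with the compared groups alone.

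Directions turned for values near 0 that were called in neither fit. For Bcl2 the WT effect was -0.014 under library-size scaling, with a range of -0.058 to 0.059 without 1 library, and the genotype difference with DMSO was -0.0072 under library-size scaling, -0.0025 under the stricter filter and -0.028 to 0.075 without 1 library. For Bax the STINGgt/gt effect was 0.0036 with no filter, 0.0021 under the stricter filter, 0.030 when library names formed the block and -0.078 to 0.029 without 1 library, and its genotype difference with DMSO was -0.036 to 0.137 without 1 library. In the same fits the STINGgt/gt effect was -0.018 to 0.044 for Bcl2l1, -0.043 to 0.060 for Bcl2l2 and -0.0013 to 0.174 for Bcl2a1b, and the difference of the effects for Bcl2l12 was -0.025 to 0.086. Of single values for a member and comparison, 19 lost and 6 gained a call, and 979 changed neither direction nor call. The cause was not tested.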
